A study of Mus musculus with 48 samples.

Results

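The cells washed from the airways of allergic mice were compared with those of untreated mice by small RNA sequencing. The comparison takes all libraries of the lavage cell pellets in the second of the study's library sets, 3 of allergic and 3 of untreated mice, which are 6 of the 48 libraries of the whole series. All mice were C57BL/6. The allergic mice had weekly intraperitoneal injections of 50 ug ovalbumin, the egg white protein used as the allergen, in PBS with alum for 3 to 4 weeks. Airway dosing began 7 days after the last injection, with 50 ug ovalbumin in 20 ul PBS aspirated through the oropharynx daily for 3 days, and specimens were taken on day 4 after the first airway dose. The untreated mice had neither injections nor anything into the airway, so the comparison covers immunization, the aspiration and the allergen together. In both groups the lungs were washed with 1 ml of cold PBS, the wash was spun at 500 g for 5 minutes, and RNA was taken from the pellet, which the labels call rich in hematopoietic cells. No cell type was sorted from it, and the labels do not state how many mice stand behind a library or whether libraries come from separate mice, so each p-value speaks only of how far these libraries spread, which may be technical.

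MicroRNAs (miRNAs) are short RNAs that guide Argonaute proteins to messenger RNAs, mostly by pairing of the seed, bases 2 to 8, and lower the output of the messages they meet. A hairpin precursor gives a 5p and a 3p strand, usually unequal in amount, and hairpins that lie close together are often cut from one primary transcript. Many miRNAs mark a cell lineage. The lavage of an unchallenged mouse holds mostly alveolar macrophages, with some shed airway epithelium, and ovalbumin-induced airway inflammation is known for bringing in eosinophils and lymphocytes. Levels are counts per 1000000 miRNA counts of a library (CPM), scaled between libraries by TMM (trimmed mean of M values), so a level depends on what else the library holds. An entry is a mature miRNA as the count table names it. An entry was called higher or lower in allergic cells at an adjusted p under 0.05 in edgeR's quasi-likelihood test, and fold changes are allergic over untreated.

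The findings turn on the following mature sequences, printed 5' to 3' from RefSeq (GRCm38.p6) with the seed in capitals. RefSeq sequences were matched for 185 of the 213 tested entries. The first set holds leukocyte miRNAs and others that rose in allergic cells, beside miR-17-5p and miR-20a-5p for comparison with their X-linked near copies.
miR-149-5p: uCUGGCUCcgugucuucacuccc
miR-139-5p: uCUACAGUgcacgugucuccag
miR-340-5p: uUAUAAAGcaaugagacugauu
miR-340-3p: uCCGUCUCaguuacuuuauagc
miR-142a-3p: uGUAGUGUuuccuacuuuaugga
miR-223-3p: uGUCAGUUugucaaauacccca
miR-155-5p: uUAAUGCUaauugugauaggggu
miR-20b-5p: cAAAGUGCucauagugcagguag
miR-106a-5p: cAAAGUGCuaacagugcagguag
miR-20a-5p: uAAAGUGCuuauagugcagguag
miR-17-5p: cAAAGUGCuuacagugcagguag
The last 4 of these share the seed AAAGUGC and come from 2 clusters, on chromosomes X and 14. The second set fell in allergic cells. Here miR-200b-3p, miR-200c-3p and miR-429-3p share a seed, as do miR-200a-3p and miR-141-3p, miR-34b-5p and miR-449a-5p, and miR-125a-5p and miR-125b-5p.
miR-551b-3p: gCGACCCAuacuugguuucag
miR-205-5p: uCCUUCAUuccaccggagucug
miR-200b-3p: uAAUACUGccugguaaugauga
miR-200c-3p: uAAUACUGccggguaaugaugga
miR-429-3p: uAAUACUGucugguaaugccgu
miR-200a-3p: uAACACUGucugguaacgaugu
miR-141-3p: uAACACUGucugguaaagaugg
miR-34b-5p: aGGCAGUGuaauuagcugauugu
miR-449a-5p: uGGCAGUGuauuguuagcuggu
miR-99b-5p: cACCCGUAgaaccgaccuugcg
let-7e-5p: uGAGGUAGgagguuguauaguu
miR-125a-5p: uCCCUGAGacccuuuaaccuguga
miR-125b-5p: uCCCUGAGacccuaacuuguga
miR-1298-5p: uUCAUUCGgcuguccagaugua
miR-511-3p: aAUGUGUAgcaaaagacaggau
The last pair share a seed but were called in opposite directions.
miR-92a-3p: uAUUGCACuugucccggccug
miR-92b-3p: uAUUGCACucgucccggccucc

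The 6 libraries were of unequal depth and composition. Rounded miRNA counts were 320250, 960784 and 184525 in the allergic libraries, against 43083, 145614 and 158950 in the untreated libraries, and 3 counts were worth 3.12 to 69.6 CPM before scaling. Untreated library 1 was the shallowest and stood apart from the other untreated libraries on the second principal component (17.3% of the variance), while the first (70.4%) parted all allergic from all untreated libraries. The erythroid list (miR-451a, miR-144 and miR-486), of red blood cells, took 5.66%, 43.6% and 5.53% of the counts in allergic cells, against 12.03%, 50.9% and 48.5% in untreated cells. Allergic library 2 thus lay near untreated libraries 2 and 3 in red cell miRNAs, and untreated library 1 nearer allergic libraries 1 and 3. The leukocyte miRNA miR-142a-3p was abundant in all 6 libraries, as the label of the pellet has it, beside the red cell miRNAs. No 2 libraries agreed within counting noise (the closest pair of a group had a chi-square of 10.8 per degree of freedom).

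Of 785 entries with counts in these libraries, 213 had enough counts to be tested, and 96 of them were called (45.1%), 49 higher (23%) and 47 lower (22.1%) in allergic cells. At an unadjusted p under 0.05 there were 111 (52.1%). The 535 untested entries with at least 1 rounded count held 0.37% of the counts. The median log2 fold change of all tested entries was 0.11, and the median size of a called change was 1.77. Of the called entries 39 changed over 4-fold, 17 higher and 22 lower. Groups did not overlap for 121 tested entries (56.8%), which include 29 that were not called. Leaving out each library in turn left 65 of the 96 calls in place every time, 30 higher and 35 lower, and 55 calls also held in each of 12 other settings in which they were tested. Scaling by total counts moved the median of all entries by -0.18 and called 31 higher and 43 lower. A limma fit of the authors' RPM values, with 1 added, called 26 higher and 39 lower.

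**Figure D1:**
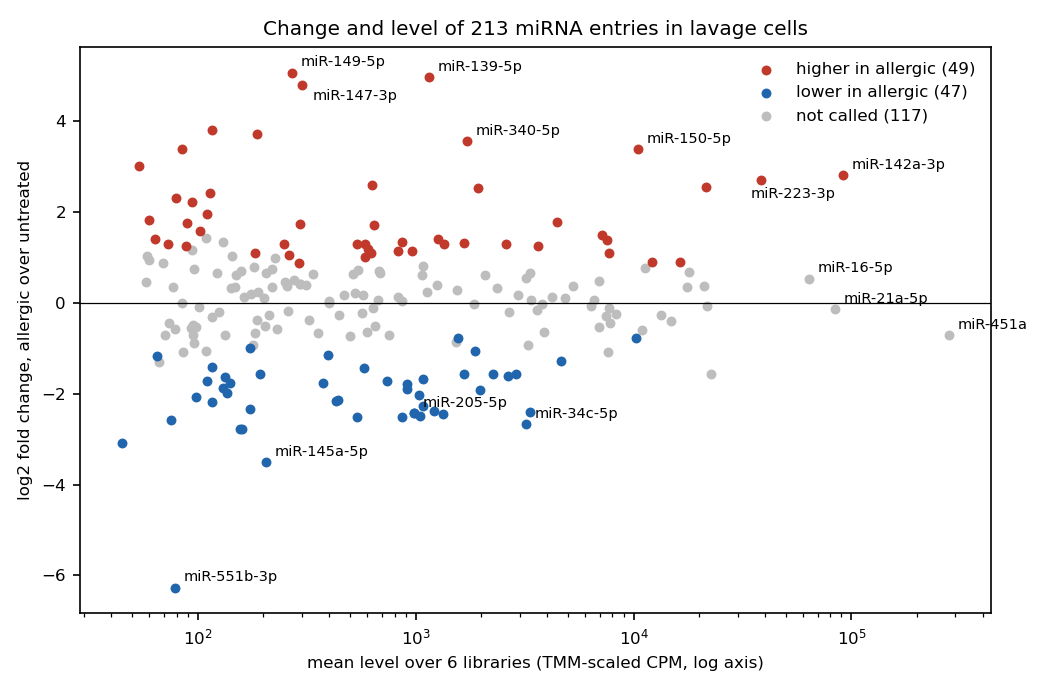
Log2 fold change (allergic over untreated) of the 213 tested entries against their mean level over the 6 libraries (TMM-scaled CPM, log axis), each point 1 entry, 49 called higher and 47 called lower. The largest increases and decreases lie at low and middle levels, and miR-451a, miR-21a-5p and miR-16-5p, among the most abundant, were not called.

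miR-142a and miR-223, miRNAs of blood-derived cells, rose. All 4 entries of the pan-leukocyte and myeloid list, both strands of miR-142a and of miR-223, were higher (median log2 fold change 2.63, against 0.11 over all tested entries). Of all tested entries 23% were higher. Their summed share was 31.7%, 14.4% and 30.9% of the counts in allergic cells, against 6.19%, 3.20% and 3.64% in untreated cells. miR-142a, made from an intron of Mir142hg on chromosome 11, is present in nearly all hematopoietic lineages and scarce elsewhere. miR-142a-3p was at 189255, 125630 and 165100 CPM in allergic cells, against 19452, 23244 and 25634 CPM in untreated cells (log2 fold change 2.81, SE 0.29, edgeR adjusted p = 5.96e-05). Every allergic library was several-fold above every untreated one in this strand, and the groups did not overlap in miR-142a-5p either (2.54, SE 0.32). In such bulk RNA, a change in the number of cells of a type and a change in RNA per cell cannot be told apart. miR-223, a miRNA of granulocytes and monocytes that restrains their activation, was led by its 3p strand. miR-223-3p was at 77831, 45369 and 77747 CPM in allergic cells, against 16871, 5194 and 8571 CPM in untreated cells (log2 fold change 2.72, SE 0.44, edgeR adjusted p = 0.000707). Untreated library 1 was the highest of its group in both miR-223 strands, and without it the log2 fold changes were 3.36 for the 3p and 3.12 for the 5p strand, against 2.72 and 2.42 with it.

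Of 5 tested lymphocyte-linked miRNAs, 2 were higher and none lower, where 23% of all tested entries were higher and 22.1% lower. miR-150-5p, abundant in mature B and T cells and a repressor of Myb, was at 20229.5, 16760.1 and 20468 CPM in allergic cells, against 2282, 2673 and 544 CPM in untreated cells (log2 fold change 3.39, SE 0.51, edgeR adjusted p = 0.000707). It ran at a like level in the 3 allergic libraries and was low in the untreated ones, lowest in number 3, without overlap. Its call was lost when untreated library 1 and allergic library 2 were both left out (log2 fold change 3.75, edgeR adjusted p = 0.0869), an alternative chosen after seeing the data. miR-181c-5p, of a family that tunes antigen receptor signalling, was at 524, 402 and 461 CPM in allergic cells, against 31.5, 235 and 120.1 CPM in untreated cells (log2 fold change 1.73, SE 0.46, edgeR adjusted p = 0.00997). All allergic libraries were higher than all untreated ones, but the call was lost without untreated library 3 (edgeR adjusted p = 0.0573), and without untreated library 2 the log2 fold change was 2.45. The other 3 tested members were not called: miR-181a-5p (0.17), miR-181b-5p (-0.66) and miR-342-3p (-0.93, edgeR adjusted p = 0.0996). The value of miR-342-3p was -0.17 without untreated library 1, and it was called lower without untreated library 2 (-1.27, edgeR adjusted p = 0.0204). The list's median log2 fold change was 0.17, and -0.04 with total count scaling.

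Of 9 tested miRNAs known to be induced on immune activation, 4 rose and none fell (median log2 fold change 1.03), where 23% of all tested entries rose. miR-147-3p, induced in mouse macrophages by Toll-like receptor signalling, was at 623, 693 and 426 CPM in allergic cells, against 15.7, 7.57 and 35.3 CPM in untreated cells (log2 fold change 4.79, SE 0.49, edgeR adjusted p = 5.96e-05). It was nearly absent from all untreated libraries, where it had 1 to 5 counts, and present in all allergic ones. It thus passed the count filter through the allergic libraries, which favours a higher call. Without untreated library 3 its log2 fold change was 5.78. miR-155-5p, processed from an exon of Mir155hg and needed for full T and B cell responses, was at 1302, 1011 and 896 CPM in allergic cells, against 361.98, 143.9 and 70.7 CPM in untreated cells (log2 fold change 2.60, SE 0.49, edgeR adjusted p = 0.00163). The groups did not overlap, and untreated library 1 was again the highest untreated one (log2 fold change 3.39 without it). miR-146a-5p, a brake on NF-kB signalling through Traf6 and Irak1, averaged 1831 ± 118 CPM in allergic cells and 696 ± 294 CPM in untreated cells (log2 fold change 1.42, SE 0.35, edgeR adjusted p = 0.00659). Its call was lost with total count scaling (edgeR adjusted p = 0.117). miR-221-3p, which represses Kit and Cdkn1b, averaged 2379 ± 202 CPM in allergic cells and 951 ± 257 CPM in untreated cells (log2 fold change 1.32, SE 0.30, edgeR adjusted p = 0.0047). Its cluster partner miR-222-3p was not called (0.61, edgeR adjusted p = 0.143). miR-146b-5p (0.77), miR-132-3p (1.03) and both strands of miR-21a were not called, though without untreated library 1 miR-146b-5p was called higher (1.17, edgeR adjusted p = 0.0028). miR-21a-5p, among the most abundant miRNAs of both groups, was at 96709, 68592 and 75153 CPM in allergic cells, against 106359, 68763 and 89183 CPM in untreated cells, and the groups overlapped.

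The largest increases among the tested entries were in 2 miRNAs made from introns of protein-coding genes. miR-149-5p lies in an intron of Gpc1, which encodes the cell surface proteoglycan glypican 1 (hairpin chr1:92850378-92850443, plus strand, GRCm38.p6). It was at 530.5, 438 and 606 CPM in allergic cells, against 31.5, 15.1 and 7.07 CPM in untreated cells (log2 fold change 5.07, SE 0.48, edgeR adjusted p = 5.49e-05). miR-139-5p lies in an intron of Pde2a, which encodes a cyclic nucleotide phosphodiesterase (chr7:101475376-101475443, plus strand). It was at 2288, 2118 and 2314 CPM in allergic cells, against 63.0, 106 and 42.4 CPM in untreated cells (log2 fold change 4.97, SE 0.41, edgeR adjusted p = 2.40e-05). Both were low in all untreated libraries and close together in the 3 allergic ones, at 33.5-fold and 31.3-fold higher. Each untreated library held fewer than 3 counts of miR-149-5p, so the size of its rise and its first place are uncertain. miR-340, in an intron of Rnf130, a ubiquitin ligase gene (chr11:50069702-50069799, plus strand), rose in both strands. miR-340-5p was at 3868, 1762 and 3831 CPM in allergic cells, against 456, 189 and 191 CPM in untreated cells (log2 fold change 3.56, SE 0.47, edgeR adjusted p = 0.000322), and miR-340-3p at 401, 283 and 371 CPM in allergic cells, against 0, 45.4 and 21.2 CPM in untreated cells (log2 fold change 3.73, SE 0.55, edgeR adjusted p = 0.000473). Neither strand overlapped between groups, and the 3p strand had 0 counts in untreated library 1, which allows up to 3 counts at that depth (its log2 fold change was 4.61 without untreated library 2). miR-148a-3p, of the miR-148 and miR-152 family, also rose without overlap. It was at 4201, 1949 and 3786 CPM in allergic cells, against 283, 606 and 791 CPM in untreated cells (log2 fold change 2.54, SE 0.43, edgeR adjusted p = 0.000936).

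**Figure D2:**
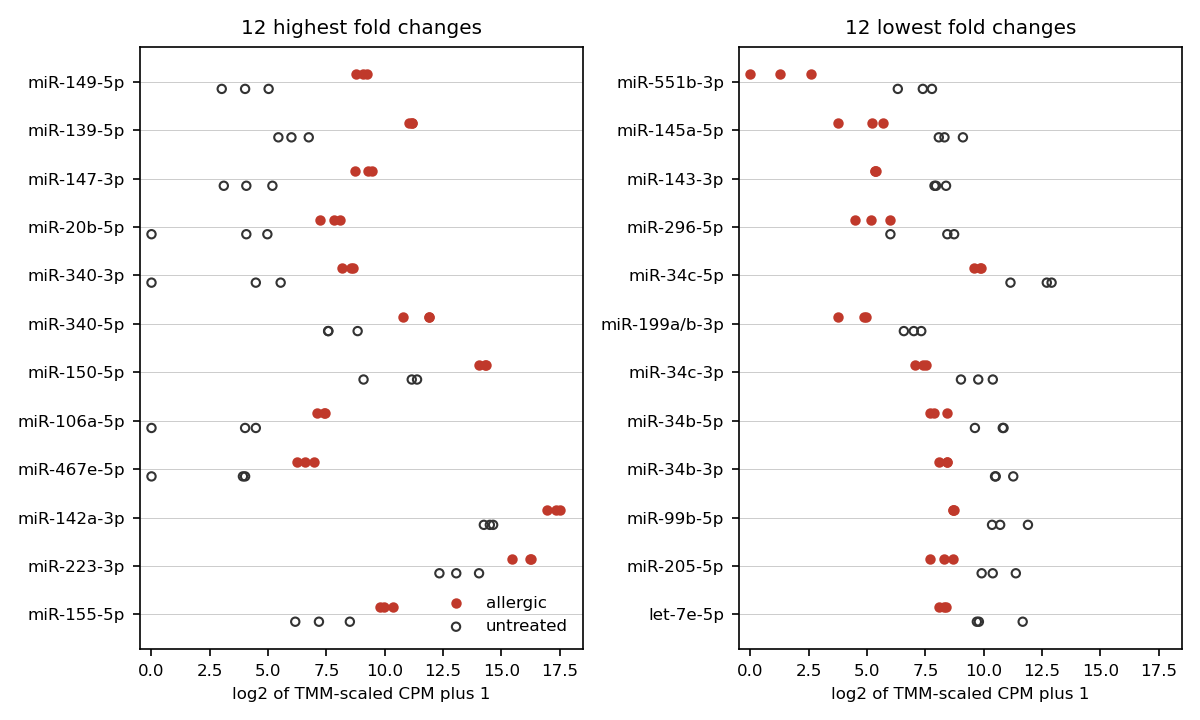
Level in each library (log2 of TMM-scaled CPM plus 1) of the 12 most increased (left) and 12 most decreased (right) called entries with a mean of at least 50 CPM, filled points for the 3 allergic and open points for the 3 untreated libraries. The groups are apart in every row, and in miR-296-5p the highest allergic and lowest untreated library nearly meet.

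The miR-17-92 family, known for driving lymphocyte growth and proliferation, had its largest log2 fold changes in the X-linked copy of the cluster. Of 8 tested entries of the miR-17-92 cluster on chromosome 14, 3 were higher and none lower (median log2 fold change 0.73), against 23% higher over all tested entries. Of 7 entries from its paralog clusters, 2 were higher (median 0.34), a share near the 23% of all tested entries. Both came from the miR-106a-363 cluster on chromosome X. They passed the count filter through the allergic libraries, which favours a higher call. miR-20b-5p was at 228, 151 and 270.4 CPM in allergic cells, against 15.7, 30.3 and 0 CPM in untreated cells (log2 fold change 3.80, SE 0.69, edgeR adjusted p = 0.00133). miR-106a-5p was at 167, 137 and 170.3 CPM in allergic cells, against 0, 15.1 and 21.2 CPM in untreated cells (log2 fold change 3.39, SE 0.56, edgeR adjusted p = 0.000763). Each had 5 counts in the 3 untreated libraries together, all below any allergic library. For miR-20b-5p the log2 fold change was 5.32 without untreated library 2 and 3.07 without untreated library 3. From chromosome 14, miR-92a-3p was at 9425, 10236 and 12129.8 CPM in allergic cells, against 2864, 4815 and 3632 CPM in untreated cells (log2 fold change 1.49, SE 0.28, edgeR adjusted p = 0.00151), and this sequence is also made from the X-linked cluster. miR-20a-5p (1.29, SE 0.31) and miR-19b-3p (1.10, SE 0.35) rose as well, while miR-17-5p (0.66), miR-18a-5p (0.80) and miR-19a-3p (0.60) were not called. The call of miR-19b-3p was lost without allergic library 1 or untreated library 3, and with total count scaling (edgeR adjusted p = 0.059). None of the 5 tested entries of the miR-106b-25 cluster was called, with log2 fold changes between -0.15 and 0.38. miR-20a-5p and miR-20b-5p, like miR-17-5p and miR-106a-5p, are nearly the same sequence, as printed above, and reads that fit several entries were split, so their separate values are uncertain.

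The miRNAs in introns of Clcn5 on chromosome X, a chloride transporter gene, had 6 of 8 tested entries higher and none lower (median log2 fold change 1.28). Over all tested entries 23% were higher and 22.1% lower, with a median of 0.11. miR-362-5p was at 1046, 863 and 1052 CPM in allergic cells, against 315, 295 and 289.7 CPM in untreated cells (log2 fold change 1.72, SE 0.28, edgeR adjusted p = 0.000752). The allergic libraries were well above the untreated ones, with little spread in either group. miR-362-3p (1.30), miR-532-5p (1.29), miR-500-3p (1.00), miR-188-5p (1.59) and miR-501-5p (1.26) were also called. Leaving out a library ended 3 of these calls: miR-188-5p lost its call without allergic library 1 or untreated library 3, miR-500-3p lost its call without allergic library 3 and miR-501-5p lost its call without allergic library 1 or 3 or untreated library 2 or 3. Total count scaling left 2 of the 6 calls, and without untreated library 1 all 8 entries were called. From the miR-466, miR-467, miR-669 and miR-297 group in the introns of Sfmbt2, a rodent miRNA cluster, 46 names had counts, only 3 could be tested, and all 3 were higher (median 1.96). The count filter was met for miR-467e-5p and miR-669a/o-3p through the allergic libraries, so 3 of 3 cannot speak for the group. miR-467e-5p was at 123, 93.5 and 75.1 CPM in allergic cells, against 0, 15.1 and 14.1 CPM in untreated cells (log2 fold change 3.02, SE 0.57, edgeR adjusted p = 0.00156). miR-467a/b-5p (1.96) and miR-669a/o-3p (1.75) rose too, but miR-467a/b-5p lost its call without untreated library 3 and miR-669a/o-3p lost its call without allergic library 1 or untreated library 3. They come from near-identical repeats, so reads may be split among them, and the log2 fold changes without untreated library 2 were 2.81 and 2.52. In the miR-29 family, which represses collagens, miR-29c-3p was at 8044, 4772 and 7843 CPM in allergic cells, against 2046, 1847 and 2134 CPM in untreated cells (log2 fold change 1.78, SE 0.28, edgeR adjusted p = 0.000707), without overlap. miR-29c-5p rose as well (1.29), but miR-29c-5p lost its call without allergic library 1 or 3 or untreated library 2 or 3 and with total count scaling (edgeR adjusted p = 0.0838), while miR-29a-3p (0.35) and miR-29b-3p (-0.06) were not called.

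Most miRNAs of airway epithelium fell. Of 12 tested epithelial entries, 9 were lower and 1 higher (median log2 fold change -1.57, against 0.11 over all tested entries). Of all tested entries 22.1% were lower and 23% higher. Their summed share was 0.653%, 0.348% and 0.811% of the counts in allergic cells, against 2.19%, 1.74% and 2.07% in untreated cells. Shares add up to the whole library, and the part of the higher leukocyte share given above in this fall was not tested. miR-205-5p, of basal airway cells, was at 312, 206.4 and 411 CPM in allergic cells, against 1338, 962 and 2657 CPM in untreated cells (log2 fold change -2.44, SE 0.44, edgeR adjusted p = 0.00121). All 5 tested members of the miR-200 family, which hold the epithelial state by repressing Zeb1 and Zeb2, fell by 1.57 to 1.93 on the log2 scale. miR-200c-3p was at 789.6, 665 and 1072 CPM in allergic cells, against 2408, 2287 and 2805 CPM in untreated cells (log2 fold change -1.57, SE 0.30, edgeR adjusted p = 0.00168). miR-141-3p, from the same cluster on chromosome 6, was at 888, 615 and 972 CPM in allergic cells, against 2125, 3581 and 3674 CPM in untreated cells (log2 fold change -1.93, SE 0.33, edgeR adjusted p = 0.000939). In both, every untreated library was above every allergic one, and the 3 members from the chromosome 4 cluster did the same. miR-375-3p, of secretory epithelium (-2.16, SE 0.34), and miR-31-5p (-1.57, SE 0.40) fell too. The call of miR-31-5p was lost without allergic library 1 or untreated library 2. miR-182-5p (-1.41) was called with overlapping groups, and miR-182-5p lost its call without allergic library 1, 2 or 3 or untreated library 2 or 3 and with total count scaling (edgeR adjusted p = 0.0664). miR-96-5p (-0.88) and miR-135b-5p (-0.58) were not called. The exception was miR-203-3p, a miRNA of stratified epithelium, at 345, 174 and 240.4 CPM in allergic cells, against 78.7, 136 and 127 CPM in untreated cells (log2 fold change 1.09, SE 0.40, edgeR adjusted p = 0.0466). Its groups did not overlap, but miR-203-3p lost its call without allergic library 1 or 3 or untreated library 2 or 3. With total count scaling (edgeR adjusted p = 0.117) the list had 8 lower and none higher.

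The miR-34 and miR-449 family, which multiciliated airway cells need to build their motile cilia, fell as well. Of 6 tested entries 5 were lower (median log2 fold change -2.50), where 22.1% of all tested entries were lower (median 0.11). The miR-34b and miR-34c entries come from 2 hairpins within 612 bases on chromosome 9, so they are not separate cases. The list's share was 0.243%, 0.133% and 0.238% of the counts in allergic cells, against 0.801%, 1.44% and 1.11% in untreated cells. miR-34c-5p was at 949.9, 764.4 and 911 CPM in allergic cells, against 2266, 7692 and 6670 CPM in untreated cells (log2 fold change -2.67, SE 0.42, edgeR adjusted p = 0.000707). miR-34b-3p was at 271, 343 and 341 CPM in allergic cells, against 1432, 2461 and 1463 CPM in untreated cells (log2 fold change -2.49, SE 0.33, edgeR adjusted p = 0.000322). The allergic libraries were alike, and the untreated ones spread above them, with library 1 the lowest in miR-34c-5p and miR-34b-5p (-2.51). miR-34c-3p (-2.52) matched these. miR-449a-5p was at 518, 279 and 371 CPM in allergic cells, against 378, 2438 and 1484 CPM in untreated cells (log2 fold change -1.90, SE 0.55, edgeR adjusted p = 0.0179), where untreated library 1 fell inside the range of allergic cells. The call of miR-449a-5p was lost without allergic library 2 or 3 or untreated library 2 or 3, and its log2 fold change was -1.27 without untreated library 2. miR-449c-5p was not called (-0.21, edgeR adjusted p = 0.751). miR-34a-5p, which shares their seed but is widely expressed and induced by p53, fell by 1.06 on the log2 scale (SE 0.35, edgeR adjusted p = 0.0303), and miR-34a-5p lost its call without allergic library 1 or 3 or untreated library 1 or 3.

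The tested miRNAs from introns of 2 genes linked in mice to tissue-resident and alveolar macrophages all fell. The list takes miR-511 of Mrc1, which encodes the mannose receptor, and 5 hairpins in introns of Htr2c, the serotonin receptor 2C gene. All 6 tested entries of the 12 listed were lower (median log2 fold change -2.04), and the other 6 had too few counts to be tested. Over all tested entries 22.1% were lower. At least miR-764-5p, miR-511-3p and miR-1264-5p passed the count filter through the untreated libraries, which favours a lower call. miR-1298-5p was at 302, 363 and 446 CPM in allergic cells, against 2644, 689 and 2028 CPM in untreated cells (log2 fold change -2.27, SE 0.46, edgeR adjusted p = 0.00235). miR-764-5p was at 46.3, 34.9 and 20.0 CPM in allergic cells, against 299, 75.7 and 113 CPM in untreated cells (log2 fold change -2.08, SE 0.54, edgeR adjusted p = 0.00906). Groups did not overlap in either, and untreated library 1 was the highest in both. miR-1912-5p (-2.19) and both strands of miR-1264 (-1.99 for the 5p and -1.77 for the 3p strand) were lower too. miR-511-3p was at 46.3, 82.3 and 10.02 CPM in allergic cells, against 204.6, 114 and 204.9 CPM in untreated cells (log2 fold change -1.73, SE 0.55, edgeR adjusted p = 0.0254), with allergic library 3 the lowest. Without untreated library 1, log2 fold changes were -1.34 for miR-764-5p, -1.58 for miR-1912-5p and -0.88 for miR-1264-3p, 5 of the 6 were called and the list median was -1.53. The call of miR-511-3p was lost without allergic library 1 or 3 or untreated library 1 or 3, and its log2 fold change was -2.44 without allergic library 2. The call of miR-1264-3p was lost without allergic library 1 or 3.

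A cluster in an intron of Spaca6 on chromosome 17 (chr17:17830194-17830879, plus strand, GRCm38.p6) fell in all 3 of its miRNAs. These are miR-99b, let-7e and miR-125a, a trio found together across animals as miR-100, let-7 and miR-125. miR-125a-5p was at 925, 1141 and 1122 CPM in allergic cells, against 9915, 3521 and 3441 CPM in untreated cells (log2 fold change -2.40, SE 0.42, edgeR adjusted p = 0.0011). miR-99b-5p was at 404, 410.1 and 426 CPM in allergic cells, against 3809, 1309.8 and 1668 CPM in untreated cells (log2 fold change -2.44, SE 0.42, edgeR adjusted p = 0.000936), and let-7e-5p at 268, 329 and 316 CPM in allergic cells, against 3258, 886 and 834 CPM in untreated cells (log2 fold change -2.42, SE 0.51, edgeR adjusted p = 0.00328). The 3 allergic libraries were nearly level, every untreated library was higher, and untreated library 1 was far above the other untreated ones. Without it the log2 fold changes were -1.64 for miR-125a-5p, -1.77 for miR-99b-5p and -1.42 for let-7e-5p, all still called. All 4 tested members of the miR-99/100 and miR-125 families were lower (median -2.39, or -1.76 without untreated library 1). miR-125b-5p, made from chromosomes 9 and 16, was at 391.7, 303 and 476 CPM in allergic cells, against 2093, 2430.4 and 1583 CPM in untreated cells (log2 fold change -2.39, SE 0.33, edgeR adjusted p = 0.000322), with no such rise in untreated library 1. Among the 9 tested let-7 entries, repressors of Hmga2 and Ras genes, let-7e-5p, let-7d-5p (-1.28) and let-7f-5p (-0.77) were lower and none was higher (median -0.53). Over all tested entries 22.1% were lower. The call of let-7d-5p was lost without allergic library 1 or 3, and that of let-7f-5p was lost without allergic library 1 or 3 or untreated library 1 or 3 and with total count scaling (edgeR adjusted p = 0.0896).

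**Figure D3:**
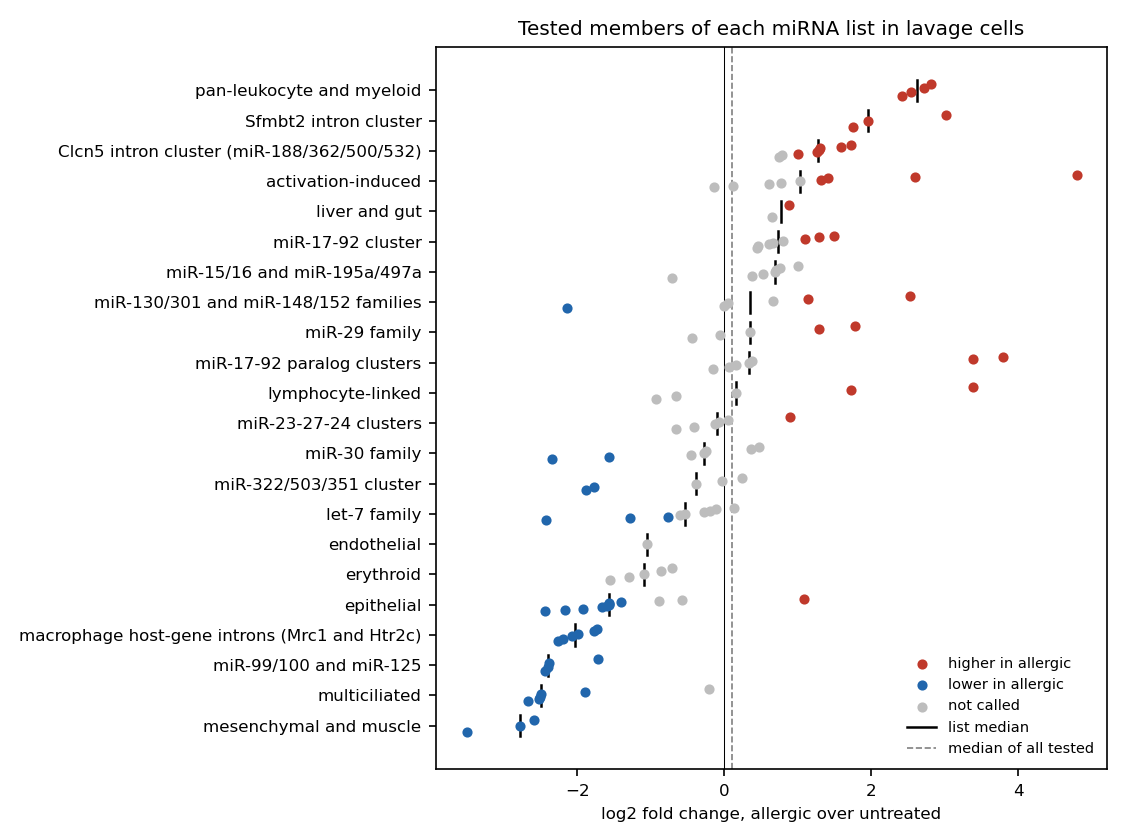
Log2 fold changes (allergic over untreated) of the tested members of each miRNA list, 1 point per entry, red for called higher, blue for called lower and grey for not called, with a bar at each list's median and a dashed line at the median of all tested entries (0.11). The leukocyte list lies highest (median 2.63), and the epithelial, macrophage intron, miR-99/125, multiciliated and mesenchymal lists lie lowest (medians -1.57 to -2.78).

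The deepest fall was in miR-551b-3p, from an intron of Egfem1 (chr3:29416840-29416899, plus strand, span of its mature strands). It had 0, 1 and 1 counts in allergic cells, against 5, 22 and 31 in untreated cells. The ratio of the scaled sums, allergic over untreated, was 0.00937 (95% exact interval 0.00111 to 0.0354, for counting error only). On the fitted scale, which here depends on the small count added, the log2 fold change was -6.27 (SE 0.66, edgeR adjusted p = 6.42e-05). miR-296-5p was at 21.6, 62.8 and 35.1 CPM in allergic cells, against 63.0, 424 and 346 CPM in untreated cells (log2 fold change -2.77, SE 0.61, edgeR adjusted p = 0.00379). Its highest allergic library nearly reached the lowest untreated one, number 1, and without allergic library 2 the log2 fold change was -3.38. The tested stromal miRNAs, none of them abundant, were lower too. Of 12 members of the mesenchymal and muscle list with counts, only 3 could be tested, and all 3 were lower (median -2.78). These passed the count filter through the untreated libraries, so the filter largely set that direction and it cannot speak for the list. The smooth muscle miRNA miR-145a-5p was at 12.3, 36.3 and 50.1 CPM in allergic cells, against 551, 318 and 268 CPM in untreated cells (log2 fold change -3.51, SE 0.51, edgeR adjusted p = 0.000464). Its cluster partner miR-143-3p was at 40.1, 39.1 and 40.1 CPM in allergic cells, against 236, 333 and 247 CPM in untreated cells (log2 fold change -2.78, SE 0.38, edgeR adjusted p = 0.000322). Of the fibroblast miRNAs, miR-199a/b-3p was at 27.8, 12.6 and 30.05 CPM in allergic cells, against 94.4, 159 and 127 CPM in untreated cells (log2 fold change -2.59, SE 0.44, edgeR adjusted p = 0.000936). None of the 3 overlapped between groups, which was so for 56.8% of all tested entries. The list as a whole held at most 0.144% of the counts of any library. The endothelial miR-126a-3p was not called (-1.06, edgeR adjusted p = 0.0637).

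Both strands of miR-30a fell, in a family whose other members did not pass. miR-30a-5p was at 925, 1537 and 952 CPM in allergic cells, against 2030.2, 4452 and 3618 CPM in untreated cells (log2 fold change -1.57, SE 0.36, edgeR adjusted p = 0.00481), and miR-30a-3p fell by 2.34 on the log2 scale (SE 0.46). The 5 other tested entries of the miR-30 family had log2 fold changes of -0.45 to 0.48. miR-130a-3p was at 160.4, 160.4 and 170.3 CPM in allergic cells, against 472, 749.6 and 926 CPM in untreated cells (log2 fold change -2.15, SE 0.31, edgeR adjusted p = 0.000464). Its groups were far apart, whereas miR-130b-3p (0.66) and miR-301a-3p (0.05), which share its seed, were not called. From the X-linked cluster of miR-322, miR-503 and miR-351, 2 of 5 tested entries were lower, against 22.1% of all tested entries. These were miR-351-5p (-1.77, SE 0.43) and miR-322-3p (-1.88, SE 0.43).

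The red cell miRNAs depended on which libraries were in. None of the 5 tested erythroid entries was called (median log2 fold change -1.09). miR-451a was at 50804, 543257 and 45379 CPM in allergic cells, against 73104, 491673 and 484339 CPM in untreated cells (log2 fold change -0.71, SE 1.29, edgeR adjusted p = 0.684). Allergic libraries 1 and 3 were low and untreated libraries 2 and 3 high, with allergic library 2 as high as those and untreated library 1 nearer the low ones. Without allergic library 2 all 5 entries were called lower (median -3.09). Taking the erythroid entries out of the table before scaling kept 95 of the 96 calls.

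Several abundant miRNAs did not pass. miR-16-5p, a repressor of cell cycle genes, was at 69290.3, 92294 and 65342 CPM in allergic cells, against 41518, 57088 and 58221 CPM in untreated cells, higher in every allergic library but not called (log2 fold change 0.53, SE 0.27, edgeR adjusted p = 0.135). None of 7 tested entries of the list of miR-15, miR-16, miR-195a and miR-497a was called (median log2 fold change 0.68). In the miR-23-27-24 clusters, known for restraining T helper 2 responses, 1 of 6 entries was higher (median -0.10), against 23% of all tested entries. That was miR-27a-3p, at 24689, 13419 and 25777 CPM in allergic cells, against 14668, 8677 and 11065 CPM in untreated cells (log2 fold change 0.89, SE 0.32, edgeR adjusted p = 0.0416), with overlapping groups. The call of miR-27a-3p was lost without allergic library 1 or 3 or untreated library 2 or 3 and with total count scaling (edgeR adjusted p = 0.361). miR-23a-3p (-0.07) and miR-24-3p (-0.41) were not called, which does not show that they were the same in both groups. Of the liver and gut miRNAs, miR-192-5p was higher (0.89, edgeR adjusted p = 0.046), but miR-192-5p lost its call without allergic library 1 or 3 or untreated library 2 and with total count scaling (edgeR adjusted p = 0.154), and miR-194-5p was not called (0.65). None of the miRNAs of the imprinted Dlk1-Dio3 cluster could be tested, and the 22 with counts held at most 0.0185% of the counts of a library.

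Where both strands of a hairpin were called, they moved in the same direction. Both arms were tested for 36 hairpins, and both were called for 10, always in the same direction, 5 higher and 5 lower. For 8 hairpins 1 arm was called and for 18 neither. Some of those without a call had arms of opposite sign, such as let-7i (5p -0.53, 3p 0.50). Across the 36 hairpins the log2 fold changes of the 2 arms had a Pearson r of 0.912, given as a description, since arms share their libraries and precursor. The pair that differed most was miR-322, whose 5p strand was at 1824 CPM in allergic and 1871 CPM in untreated cells (-0.03), and whose 3p strand was at 58.6, 36.3 and 75.1 CPM in allergic cells, against 252, 212 and 148 CPM in untreated cells (log2 fold change -1.88, SE 0.43, edgeR adjusted p = 0.00454). The difference between these arms was 1.85 on the log2 scale and was not tested.

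**Figure D4:**
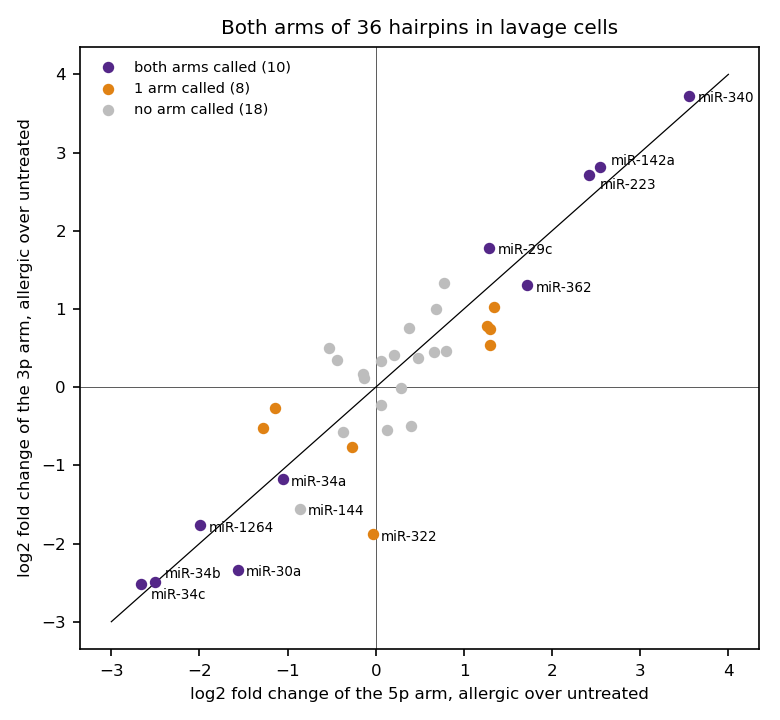
Log2 fold change (allergic over untreated) of the 5p arm (horizontal) and the 3p arm (vertical) of the 36 hairpins with both arms tested, each point 1 hairpin, coloured by whether both, 1 or no arm was called. The 10 hairpins with both arms called lie near the line of equal change, and miR-322 lies off it (5p -0.03, 3p -1.88).

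Of 29 groups of miRNA genes lying within 10000 bases of each other, 10 had products of at least 2 genes called in 1 direction and 0 had calls in both. A sequence made at several loci, such as miR-92a-3p or miR-19b-3p, counted in each of its groups, though its reads cannot be assigned to a locus. Of 24 seeds shared by at least 2 tested entries, 1 had calls in both directions. It is AUUGCAC, the seed of miR-92a-3p and miR-92b-3p. miR-92b-3p, made from chromosome 3, was at 410.2, 367 and 456 CPM in allergic cells, against 1306, 1681 and 1265 CPM in untreated cells (log2 fold change -1.79, SE 0.29, edgeR adjusted p = 0.000707). It fell in allergic cells while miR-92a-3p rose, and neither overlapped between groups. The other 2 tested entries with this seed, miR-25-3p (0.38) and miR-32-5p (-0.63), were not called. Among entries with the seed AAAGUGC, log2 fold changes ran from -0.15 for miR-106b-5p to 3.80 for miR-20b-5p.

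The study also holds lavage cells of allergic mice beside mice immunized in the same way but given PBS into the airway, in library sets of their own (4 libraries each), so that only the allergen differs. That comparison shares no library with the one described above. It called 84 of 227 entries (37%), 49 higher (21.6%) and 35 lower (15.4%), or 19 higher and 49 lower with total count scaling. Of 207 entries tested in both, 53 were called in both in the same direction. That is 57.0% of the 93 of these entries called against untreated cells, and 63.1% of all 84 called against immunized cells. Only miR-296-5p was called in opposite directions. Across these entries Pearson's r of the log2 fold changes was 0.776, as a description over miRNAs that share libraries. The changes themselves were set against each other in a joint fit of all 14 lavage cell libraries, and 2 of 258 entries differed (0.775%). miR-551b-3p had 47.1, 82.8, 46.9 and 58.4 CPM in allergic cells of the other sets, against 236, 102, 91.7 and 102 in immunized cells, on the scale of the joint fit (difference -4.97, SE 0.87, edgeR adjusted p = 0.0141). It was thus lower against immunized cells too (-1.15), but present in each allergic library of those sets and nearly absent from the allergic libraries described here. miR-296-5p had 80.1, 222.6, 436 and 125 CPM in allergic cells of the other sets, against 92.3, 50.8, 78.6 and 58.6 in immunized cells (difference -4.18, SE 0.89, edgeR adjusted p = 0.0442). There it was higher in allergic cells (1.57, edgeR adjusted p = 0.0355). The third lowest p was that of miR-135a-5p, which did not pass (2.42, edgeR adjusted p = 0.0739). The largest increases described above were smaller against immunized cells, at 1.90 for miR-149-5p and 2.57 for miR-139-5p, but neither difference passed (edgeR adjusted p = 0.0739 and 0.104), and library set and comparison cannot be told apart here.

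The cell-free lavage fluid of the same library set was compared in the same way. In fluid 73 of 247 entries were called between allergic and untreated mice (29.6%), 41 higher (16.6%) and 32 lower (13%), or 33 higher and 60 lower with total count scaling. Of 188 entries tested in both, 26 were called in the same direction and 3 in opposite directions, and Pearson's r was 0.505. In a joint fit the change in cells differed from that in fluid for 71 of 273 entries (26%), 27 more positive (9.89%) and 44 more negative (16.1%) in cells. All 6 tested multiciliated entries changed more negatively in cells than in fluid (median difference -3.22, against -0.21 over all 273), as did 8 of 16 epithelial entries (median -1.55). miR-34c-5p, lower in allergic cells, was at 30552, 26623 and 32962 CPM in allergic fluid, against 22577, 12379.6 and 23945 CPM in untreated fluid (difference -3.29, SE 0.56, edgeR adjusted p = 0.00195). Its allergic fluid libraries were above the untreated ones, the reverse of the cells, although fluid alone did not pass (0.60, edgeR adjusted p = 0.0831). miR-449a-5p was at 10233, 9601 and 11788 CPM in allergic fluid, against 3460.4, 2442 and 5751 CPM in untreated fluid (difference -3.37, SE 0.73, edgeR adjusted p = 0.00606), called higher there (1.42) and lower in cells. The miR-200 family members, down in cells, had fluid log2 fold changes of 0.07 to 0.17, and for miR-200c-3p the difference of cells from fluid was -1.73 (edgeR adjusted p = 0.00243). miR-149-5p, with the largest rise in cells, was at 50.4, 62.7 and 28.9 CPM in allergic fluid, against 63.7, 37.5 and 23.9 CPM in untreated fluid (difference 4.91, SE 0.68, edgeR adjusted p = 0.000678), with the groups overlapping. miR-142a-3p had log2 fold changes of 2.81 in cells and 2.88 in fluid, and miR-147-3p of 4.79 in cells and 5.97 in fluid, all called.

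**Figure D5:**
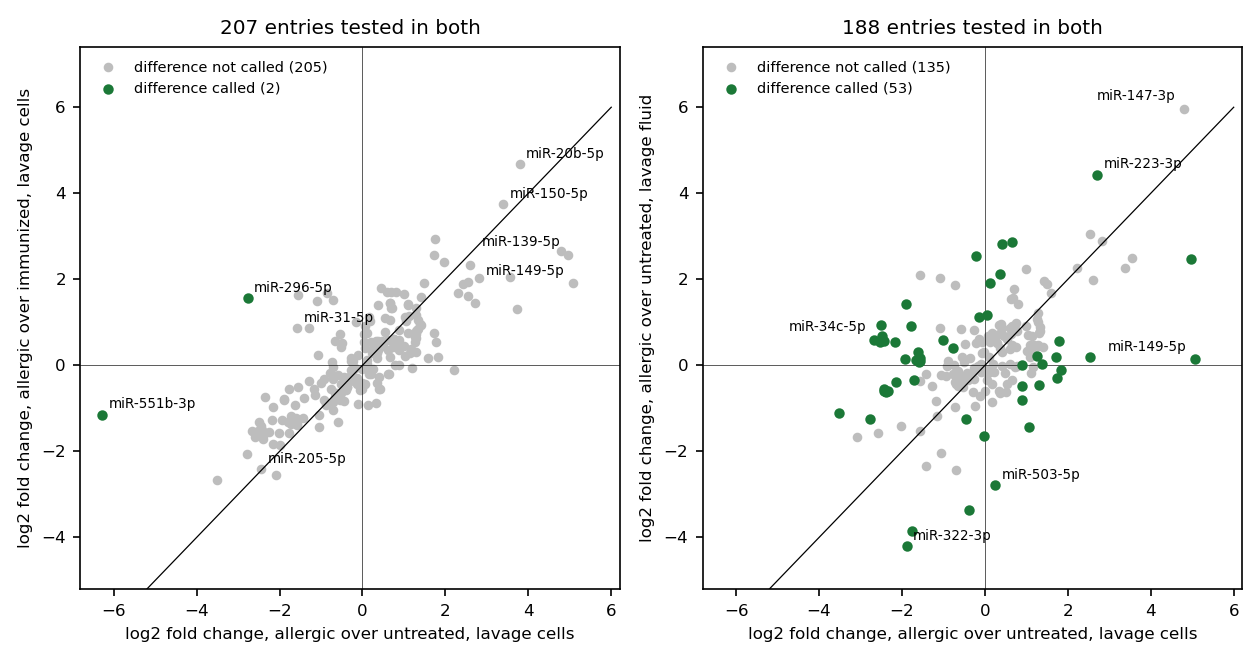
Log2 fold changes of lavage cells, allergic over untreated (horizontal), against those of allergic over immunized lavage cells (left, 207 entries) and of allergic over untreated lavage fluid (right, 188 entries), with the line of equal change. Green marks entries whose change differed between the comparisons in a joint fit, 2 on the left and 53 on the right.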

How the data were processed

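Small RNA libraries of lavage cell pellets, made with 5 random bases on the 3' adapter per the labels' protocols, were compared, 3 of allergic and 3 of untreated C57BL/6 mice. The authors deposited a table of expected counts per miRNA, which its file name assigns to exceRpt, an extracellular RNA pipeline, and in which 6.62% of the values used are not whole, as happens when reads that fit several entries are divided. They also deposited a table of RPM (reads scaled so that each library has the same total), whose file name mentions DESeq2 normalization. cutadapt, DESeq2 and mm10 are named per the submitters' processing notes, while the sources used here name no aligner. Counts were rounded, which moved no library's total by more than 0.00928%, so that the count test planned could be used. Totals ran from 43083 to 960784. Entries named by a hairpin (35) held 0.0149% of the counts and entries of joined names (22) 0.941%. All columns of these libraries were matched to a sample by name, with 0 left unmatched.

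filterByExpr with a minimum count of 10 chose the entries, which were then scaled by TMM and tested with edgeR 4.0.16 (robust quasi-likelihood fit, R 4.3.3) on these 6 libraries without covariates. P-values were adjusted by Benjamini-Hochberg over all 213 tested entries and called under 0.05. The biological coefficient of variation was 0.343. Alternatives used DESeq2 1.42.0, limma 3.58.1 on log2(RPM + 1) and log2(RPM + 10), other scalings and filters, a replicate block and leaving out each library. Fits across comparisons tested the difference of changes as an interaction, for fluid without a block. There, cells and fluid of the same number deviated together in every pair (r = 0.127 to 0.357), and a block by number gave 78 in place of 71 differences. The code was tested on simulated counts. Intervals and the 3-count floor cover counting error only. Entries named in full are the 12 largest changes each way among called entries with a mean of at least 50 CPM, with the most abundant, the lists' members and the named differences. The members and the lists were chosen with earlier results of these data known. Sequences and coordinates come from RefSeq GRCm38.p6 and host genes from the GENCODE annotation of the same assembly.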

Additional observations from a re-analysis of the deposited data

Results flagged for a closer look

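The change of allergic against untreated cells differed from that of allergic against immunized cells for 2 miRNAs, by a test of the difference itself in edgeR. For miR-551b-3p the change against untreated minus the change against immunized cells was -4.97 on the log2 scale (edgeR adjusted p = 0.0141), lower in allergic cells in both comparisons. For miR-296-5p it was -4.18 (edgeR adjusted p = 0.0442), lower in allergic cells than in untreated cells and higher than in immunized cells. Library sets differ between the comparisons, and their part was not tested. Neither call held in every fit that left out a library.

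Between lavage cells and lavage fluid the same kind of test gave 71 differences, of which the 5 most negative and 5 most positive are given as the change in cells minus the change in fluid, on the log2 scale. The negative ones were miR-223-5p at -4.56, miR-511-3p at -4.37, miR-34b-5p at -3.46, miR-449a-5p at -3.37 and miR-34c-5p at -3.29. miR-223-5p rose in allergic cells and had 0 counts in all 3 untreated fluid libraries, so its value is no measure of size. miR-511-3p had 3.18, 1.88 and 0 CPM in untreated fluid and could not be tested in fluid alone, so the size of its difference is equally uncertain. The miR-34 and miR-449 entries fell in allergic cells, while their log2 fold changes in fluid were 0.94 for miR-34b-5p, 1.42 for miR-449a-5p and 0.60 for miR-34c-5p, of which miR-449a-5p passed. The positive ones were miR-669a/o-3p at 2.91, miR-450a-5p at 2.97, miR-503-5p at 3.01, miR-340-3p at 3.27 and miR-149-5p at 4.91. miR-669a/o-3p and miR-340-3p could not be tested in fluid alone, and miR-340-3p had 0 counts in untreated cell library 1. The sizes of their differences are thus uncertain, as is that of miR-149-5p, with fewer than 3 counts in each untreated cell library. miR-450a-5p and miR-503-5p, of 1 cluster on chromosome X, were not called in cells (-0.38 and 0.25) and were lower in allergic fluid (-3.36 and -2.78).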

How the results depend on the processing

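The 96 calls of allergic against untreated cells became 73 (without allergic library 1) to 108 (without allergic library 2) when 1 library was left out, 94 with DESeq2 size factors, 74 with total count scaling, 127 without a filter on low counts, 109 with DESeq2, 71 at a minimum count of 30, 65 and 67 in limma fits of RPM plus 1 and plus 10, and 105 in a fit of all 14 cell libraries. With the replicate number as a block 101 entries were called, but same-numbered libraries of the 2 groups deviated together in 2 of 3 pairs only (r = 0.264, 0.308 and -0.131), so the numbers were not taken to pair them. Allergic against immunized cells gave 84 calls, and 53 (without immunized library 3) to 85 with a library left out. Fluid gave 73, and 41 (without fluid allergic library 1; 43 without number 2) to 101. The difference between the changes against untreated and immunized cells gave 2, against 8 without a filter, 10 with DESeq2, and 0 to 9 with a library left out (9 without untreated library 1), so its calls rest on few libraries. The log2 ratio of the erythroid share, allergic over untreated, was -1.02, and ran from -2.73 (without allergic library 2) to -0.59. The log2 fold change of miR-23a-3p, which was not called, was -0.07, and 0.55 without both untreated library 1 and allergic library 2, a setting chosen after seeing the data. For these results the cause was not tested. Untreated library 1, with 43083 counts, limits what can be said of entries with few counts, since 3 of its counts make 69.6 CPM.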

Other observations

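Of the 96 called entries, 30 were in no list, 18 higher and 12 lower, and those named here were chosen after their values were seen. miR-5100 was at 163, 112 and 125 CPM in allergic cells, against 15.7, 30.3 and 28.3 CPM in untreated cells (log2 fold change 2.31, edgeR adjusted p = 0.0021). miR-135a-5p was at 141.9, 184 and 135.2 CPM in allergic cells, against 47.2, 30.3 and 28.3 CPM in untreated cells (log2 fold change 2.21, edgeR adjusted p = 0.00225). Neither overlapped between groups. miR-210-3p, induced under hypoxia by HIF1A, was at 281, 418 and 366 CPM in allergic cells, against 110.2, 204 and 113 CPM in untreated cells (log2 fold change 1.29, edgeR adjusted p = 0.0136), and miR-210-3p lost its call without untreated library 3. All allergic libraries were higher than all untreated ones in it. miR-652-3p was at 5302, 4020.2 and 6085 CPM in allergic cells, against 2424, 2097 and 1936 CPM in untreated cells (log2 fold change 1.26, edgeR adjusted p = 0.00332), a call lost with total count scaling (edgeR adjusted p = 0.0838). miR-26a-5p and miR-26b-5p, which share a seed, had log2 fold changes of 0.89 and 1.38, both lost with total count scaling, and miR-26a-5p lost its call without allergic library 1 or untreated library 3.

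Among the decreases in no list, miR-218-5p, made from introns of Slit2 and Slit3, was at 9.25, 6.97 and 15.02 CPM in allergic cells, against 63.0, 75.7 and 98.9 CPM in untreated cells (log2 fold change -3.08, edgeR adjusted p = 0.000322). It was low in all libraries, and every untreated one was higher. miR-365-3p was at 293, 488 and 431 CPM in allergic cells, against 3541, 651 and 827 CPM in untreated cells (log2 fold change -2.02, edgeR adjusted p = 0.0254). Untreated library 1 was the highest for it, miR-365-3p lost its call without allergic library 1 or 3, and the log2 fold change without untreated library 1 was -0.78. miR-193a-3p was at 330, 346 and 250.4 CPM in allergic cells, against 1165, 621 and 756 CPM in untreated cells (log2 fold change -1.43, edgeR adjusted p = 0.00442).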
